A study of Mus musculus with 4 samples.

Results

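Genes of growth arrest and the p53 response, 10 in all, were followed in fasted mouse livers that lack Cpt1a: Cdkn1a, Mdm2, Ccng1, Trp53inp1, Phlda3, Btg2, Gadd45a, Gadd45b, Gadd45g and Myc. They were taken by symbol from the 54532 genes of the deposited tables, and all 10 were found. The series holds 4 RNA-seq libraries of 1 genotype, a liver-specific knockout of Cpt1a, from mice fasted for 24 h. They are called livers 1 to 4, and the labels do not say that they come from separate animals, so their spread may be technical. Cpt1a encodes the outer mitochondrial membrane enzyme through which long-chain fatty acids enter oxidation, and Cpt2 the inner membrane enzyme that completes their import. The authors' column names join Cpt1a, and likewise Cpt2, with AlbCre, a Cre recombinase driven by the albumin promoter and thus active in hepatocytes, so other liver cells keep the gene by design. Other groups appear here only through 3 comparison tables of the authors, without SD or n. Those groups are one labelled Cpt2_AlbCre, called the Cpt2 group, and one labelled Rab30Cpt2_f, called the reference group, and "knockouts" below means the groups as labelled. Per the design text the controls were littermates, every mouse was fasted for 24 h, and the Cpt2 samples belong to an earlier submission. What Rab30 stands for in that label, and the strain, age and sex, could not be taken from the labels.

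The transcription factor p53 is held low in unstressed cells by the ubiquitin ligase MDM2, whose own gene it activates, and after DNA damage or metabolic stress it switches on genes that stop the cell cycle, repair DNA or trigger cell death. Cdkn1a encodes p21, the inhibitor of cyclin-dependent kinases that carries much of this arrest, and in liver p21 and GADD45 proteins also respond to fasting, injury and regeneration independently of p53. MYC acts in the opposite sense, driving growth, ribosome production and entry into the cell cycle.

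The libraries held 13138884 to 14116441 counts and 19732 to 20258 genes with a count. No pair of livers agreed within counting error: chi-square divided by genes ran from 20.5 to 68.1, and the highest 2 values, 68.1 and 58.6, both came from pairs with liver 1. Cpt1a was at 24.4 to 36.9 FPKM (fragments per kilobase of gene, scaled to sequencing depth) and had a log2 fold change of −2.79 against the reference group in the authors' deposited table (adjusted p = 5.27e-51). Cpt2 itself had −0.07 in the Cpt2 group in the authors' deposited table (adjusted p = 0.837), so its transcript level does not bear out that label. Every direction given for this group rests on the label alone. Only a level over the whole gene was available, so whether Cpt2 was deleted there was not tested. The tissue carried its hepatocyte markers, with 18141 to 26413 FPKM summed over 6 of them.

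Of the 10 genes, Cdkn1a, Btg2 and Gadd45g fell in the Cpt1a knockout against the reference group, and none rose, at the authors' adjusted p below 0.05. That is 3 genes lower, where 7.6% of all 16862 genes tested were called lower, 6.81% higher and 14.4% in either direction. In the Cpt2 group against the same reference, Gadd45g and Trp53inp1 fell and Myc rose, where 10.7% of all genes were called lower, 10.3% higher and 21% in either direction. Between the knockouts, Cdkn1a, Btg2 and Myc were lower and Trp53inp1 was higher in the Cpt1a knockout, where 14.6% of all genes were called lower, 14.2% higher and 28.8% in either direction. The median log2 fold change of the 10 genes was −0.31, 0.19 and −0.14 in these 3 comparisons, beside 0.01, −0.03 and 0.05 over all genes. Against the reference, 4 of the 10 values behind the first median, and all of those behind 0.01, are sums of the other 2 tables. Comparisons with the reference group share its libraries, those with the Cpt2 group share that group, and those with the Cpt1a knockout share its libraries.

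**Figure D1:**
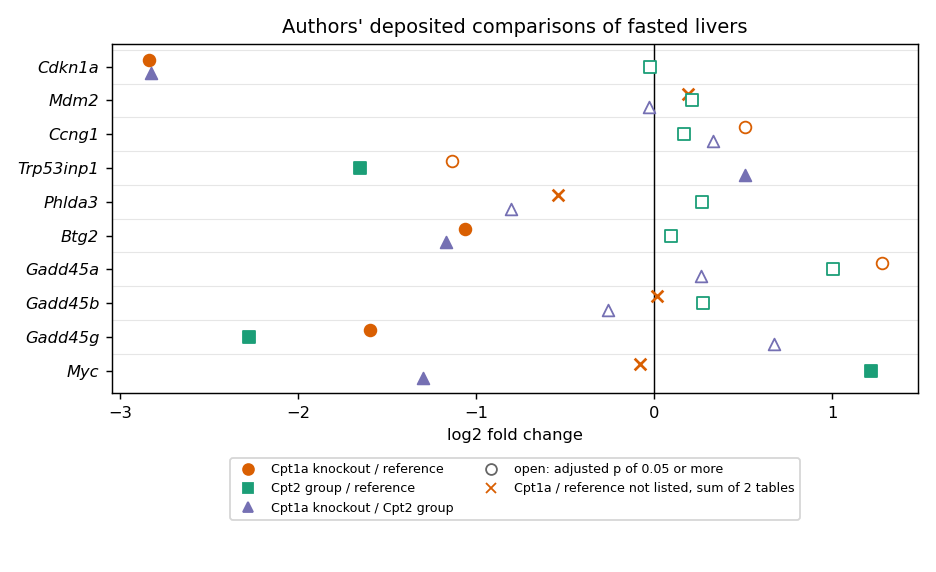
The log2 fold change (x axis) of the 10 genes (y axis) in 3 comparisons, with filled symbols for an adjusted p below 0.05, open symbols for the rest, and crosses where the value is the sum of the other 2 tables. Cdkn1a lies at −2.84 and −2.82 against both other groups, and Gadd45g at −1.60 and −2.27 in both knockouts against the reference.

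Cdkn1a (ENSMUSG00000023067, chromosome 17, 29090976 to 29100727, plus strand, GRCm38) had 3.19, 2.10, 2.68 and 2.13 FPKM in livers 1 to 4, from 170, 112, 151 and 119 counts. Liver 1 was highest and liver 2 lowest. AC167363.2, which overlaps it on the opposite strand, had 1 to 9 counts. The mean was 2.52 ± 0.517 FPKM (SD, n = 4), a coefficient of variation of 20.5% where counting alone would give 8.51%. Its level was 7.15-fold below that of the reference group by the authors' deposited table (log2 fold change −2.84, adjusted p = 1.44e-12). Against the Cpt2 group the level was lower by 7.08-fold by the authors' deposited table (log2 fold change −2.82, adjusted p = 1.09e-25). The Cpt2 group itself had a log2 fold change of −0.02 against the reference in the authors' deposited table (adjusted p = 0.987). Cdkn1a was thus low in the Cpt1a knockout against both other groups, in comparisons that share the Cpt1a knockout libraries and so are not independent. Batch and group cannot be told apart in them. Ranked by p among the 1282 genes lower than the reference in the authors' deposited table, Cdkn1a was number 43. In bulk liver, fewer cells of a type and less RNA per cell cannot be told apart.

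Some cell type markers were called in these contrasts, and their part in the results was not tested. Of all genes, 14.4% were called in the Cpt1a knockout against the reference, 21% in the Cpt2 group and 28.8% between the knockouts. Single calls in lists this short therefore lie near the share over all genes. In the Cpt1a knockout against the reference group, hepatocyte markers were lower in 3 of 6, Kupffer cell markers higher in 1 of 7, lymphocyte markers higher in 3 of 7 and stellate cell markers higher in 1 of 6 in the authors' deposited table. In the Cpt2 group, 3 of 6 hepatocyte markers, 3 of 7 Kupffer cell markers, 1 of 6 endothelial and 1 of 5 bile duct markers were lower than in the reference, and none of these lists was higher, in the authors' deposited table. Between the knockouts all 7 Kupffer cell markers, 3 of 7 lymphocyte, 2 of 6 endothelial, 1 of 6 hepatocyte, 1 of 5 bile duct and 1 of 6 stellate cell markers were higher in the Cpt1a knockout, and 2 stellate cell markers were lower, by the authors' deposited table. Summed over each list the 4 livers held 110 to 144 FPKM of Kupffer cell, 47.4 to 52.3 of endothelial, 32.5 to 39.1 of stellate cell, 8.53 to 12.4 of bile duct, 3.06 to 3.92 of lymphocyte and 2.24 to 3.81 of neutrophil markers, and no marker was at 0 in all livers.

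Mdm2 and Ccng1, direct targets of p53 that respond early to its activation, were called in none of the 3 comparisons. Mdm2 (chromosome 10, 117688875 to 117710758, minus strand) ranged from 9.36 FPKM in liver 4 to 11.98 in liver 2, with a mean of 10.7 ± 1.08 (SD, n = 4). It is not among the genes listed against the reference group, where the sum of the other tables gives a log2 fold change of 0.19. The authors' deposited tables gave it 0.21 in the Cpt2 group (adjusted p = 0.370) and −0.03 between the knockouts (adjusted p = 0.914). Ccng1, which encodes cyclin G1 (chromosome 11, 40748552 to 40755311, minus strand), ranged from 15.7 FPKM in liver 4 to 19.4 in liver 1, with a mean of 17.7 ± 1.65 (SD, n = 4). In the authors' deposited tables its log2 fold changes were 0.51 against the reference (adjusted p = 0.103), 0.17 in the Cpt2 group (0.673) and 0.33 between the knockouts (0.0539), none of which passed. Both had the smallest spread between livers of the genes above 1 FPKM.

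These 3 genes are shown with their upstream sequence because all are textbook p53 targets and only Cdkn1a was low. RefSeq promoter windows (GRCm38.p6, 250 bases before to 50 after a start) matched 8 of the 10 genes (all but Trp53inp1 and Myc), with 9 windows because Cdkn1a has 2 starts. Each window was searched on both strands for the p53 decamer, the 10-base recognition element of p53, and for the paired p53 site of 20 bases, which is 2 decamers with no gap and at most 2 mismatches and so overlaps the decamer. The decamer occurs in 8.36% and the paired site in 0.798% of 32851 windows. Capitals mark the paired site in Cdkn1a and Ccng1, each with 1 mismatch, and a single decamer in Mdm2. Sequence outside the windows was not searched, so Mdm2 may hold a paired site elsewhere. The Cdkn1a stretch holds a further exact decamer, left in lower case, at −73 from the start, and the window of Gadd45a holds one at −40.
Cdkn1a (chr17:29090904-29090963, plus strand): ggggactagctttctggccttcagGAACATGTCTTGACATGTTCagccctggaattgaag
Ccng1 (chr11:40755442-40755501, minus strand): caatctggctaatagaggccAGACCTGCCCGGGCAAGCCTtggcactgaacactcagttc
Mdm2 (chr10:117710914-117710973, minus strand): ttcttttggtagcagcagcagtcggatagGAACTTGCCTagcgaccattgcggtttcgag
The site in Cdkn1a starts 51 bases before the upstream start and ends 2822 bases before the second start, whose own window held no decamer. Cdkn1a and Ccng1 thus both hold a paired site. Their log2 fold changes against the reference were −2.84 and 0.51 in the authors' deposited table, and a role of the site was not tested. A match is a description of the letters and does not show that p53 binds there in these livers.

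Trp53inp1, whose stress-induced protein acts with p53 and in autophagy (chromosome 4, 11156431 to 11174379, plus strand), had 21.0, 14.2, 11.9 and 11.9 FPKM in livers 1 to 4. Liver 1 stood above the other 3, and the mean was 14.8 ± 4.31 FPKM (SD, n = 4). In the Cpt2 group it was 3.14-fold below the reference by the authors' deposited table (log2 fold change −1.65, adjusted p = 2.22e-05). The Cpt1a knockout had a log2 fold change of −1.13 in the authors' deposited table, which did not pass (adjusted p = 0.114). Directly compared, it was 1.42-fold higher in the Cpt1a knockout than in the Cpt2 group in the authors' deposited table (log2 fold change 0.51, adjusted p = 0.0351). Phlda3, a p53 target that restrains AKT signalling (chromosome 1, 135766119 to 135769136, plus strand), was near the floor of the assay, at 0.323 to 0.641 FPKM from 8 to 15 counts. Its log2 fold changes in the authors' deposited tables were 0.27 in the Cpt2 group (adjusted p = 0.803) and −0.81 between the knockouts (0.195), neither of which passed, and the summed value against the reference was −0.54.

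Btg2, an antiproliferative partner of the mRNA deadenylation complex (chromosome 1, 134075170 to 134079120, minus strand), had 5.44, 6.91, 6.71 and 4.55 FPKM in livers 1 to 4. Livers 2 and 3 were the higher pair, and the mean was 5.90 ± 1.11 FPKM (SD, n = 4). Against the reference it was lower by 2.09-fold by the authors' deposited table (log2 fold change −1.06, adjusted p = 0.0316). Against the Cpt2 group the difference was 2.25-fold, again lower, by the authors' deposited table (log2 fold change −1.17, adjusted p = 1.07e-08), while the Cpt2 group itself had 0.10 against the reference (adjusted p = 0.903). Btg2 was therefore placed like Cdkn1a, low in the Cpt1a knockout against both groups, with a smaller fold and with the same shared libraries.

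None of its 4 relatives of the BTG and TOB family was called in the Cpt1a knockout against the reference. Of all genes, 14.4% were called there, 21% in the Cpt2 group and 28.8% between the knockouts. Btg1 and Tob1 of the Cpt2 group had log2 fold changes of −1.13 and −0.77 and Btg3 of 0.94, all 3 called in the authors' deposited table. These 3 were also called between the knockouts in the authors' deposited table, with Btg1 at 0.66, Tob1 at 0.54 and Btg3 at −1.06. Tob1 was the most abundant of the family, at 70.5 ± 14.8 FPKM (SD, n = 4).

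The GADD45 proteins are small stress-induced proteins that activate the kinase MAP3K4 upstream of p38 and JNK and take part in DNA demethylation and repair. Gadd45g (chromosome 13, 51846678 to 51848468, plus strand) had the highest mean of the 10 genes on the FPKM scale, though below Ccng1 in liver 4, at 24.8, 22.9, 41.8 and 13.6 in livers 1 to 4. Liver 3 was 3.07-fold above liver 4, the widest range of the 10 genes, around a mean of 25.8 ± 11.7 FPKM (SD, n = 4). It was lower than the reference in both knockouts in the authors' deposited tables, 3.02-fold in the Cpt1a knockout (log2 fold change −1.60, adjusted p = 0.0311) and 4.84-fold in the Cpt2 group (−2.27, 1.30e-08). The direct difference between the knockouts, 0.67 in the authors' deposited table, did not pass (adjusted p = 0.0799).

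Gadd45b (chromosome 10, 80930073 to 80932204, plus strand) had 11.99, 5.77, 6.74 and 6.77 FPKM in livers 1 to 4. Liver 1 stood apart at 2.08 times the lowest, and the mean of 7.82 ± 2.82 FPKM (SD, n = 4) became 6.43 without liver 1. It is not listed against the reference group, with a summed log2 fold change of 0.02, and had 0.28 in the Cpt2 group (adjusted p = 0.817) and −0.26 between the knockouts (0.522) in the authors' deposited tables. Gadd45a (chromosome 6, 67035096 to 67037457, minus strand) had 12 to 23 counts per liver, or 0.640 ± 0.195 FPKM (SD, n = 4). Its log2 fold changes of 1.28 in the Cpt1a knockout (adjusted p = 0.1001) and 1.01 in the Cpt2 group (0.215), and of 0.26 between the knockouts (0.731), did not pass in the authors' deposited tables. Gadd45a overlaps E230016M11Rik on the opposite strand, which had 13 to 25 counts, and since the use of strand is not given, reads of both cannot be told apart. Gadd45g made up 64.2 to 84.7% of the summed FPKM of the 3 genes in the 4 livers, so the family's transcript in this liver was mostly the member that was low.

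Upstream sequences of Btg2, Gadd45g and Gadd45b are shown because Btg2 and Gadd45g were low and Gadd45b, a relative of Gadd45g, was not called. The same windows were searched on both strands for CACGTG, the E-box bound by MYC with MAX, for TGACGTCA, the cyclic AMP response element, and for TATAAA. These occur in 7.15%, 1.79% and 13.6% of all windows, do not overlap one another here, and are in capitals.
Btg2 (chr1:134079286-134079345, minus strand): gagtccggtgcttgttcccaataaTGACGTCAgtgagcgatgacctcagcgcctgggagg
Gadd45g (chr13:51846515-51846665, plus strand): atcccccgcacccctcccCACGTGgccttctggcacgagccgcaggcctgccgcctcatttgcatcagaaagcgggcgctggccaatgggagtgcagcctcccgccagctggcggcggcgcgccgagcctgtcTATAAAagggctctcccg
Gadd45b (chr10:80929886-80930056, plus strand): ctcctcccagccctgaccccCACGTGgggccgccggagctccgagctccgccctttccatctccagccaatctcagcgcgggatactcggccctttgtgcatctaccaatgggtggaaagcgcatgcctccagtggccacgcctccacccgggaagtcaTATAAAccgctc
Gadd45g and Gadd45b both hold the E-box and the TATA element. In the Cpt2 group their log2 fold changes were −2.27 and 0.28 in the authors' deposited table. A role of these elements was not tested. Of the 8 genes with a window, only Btg2 held the cyclic AMP response element and only the 2 Gadd45 genes shown the E-box.

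Myc (chromosome 15, 61985391 to 61990374, plus strand) had 2.31, 3.16, 4.13 and 3.47 FPKM in livers 1 to 4, from 94 to 178 counts. Liver 1, the highest for Cdkn1a, Trp53inp1 and Gadd45b, was the lowest for Myc and also the highest for Ccng1 and Phlda3, and the mean was 3.26 ± 0.757 FPKM (SD, n = 4). Myc was 2.32-fold higher in the Cpt2 group than in the reference by the authors' deposited table (log2 fold change 1.22, adjusted p = 0.00860). The Cpt1a knockout was 2.46-fold below the Cpt2 group in the authors' deposited table (log2 fold change −1.30, adjusted p = 9.50e-05). Myc is not listed for the Cpt1a knockout against the reference group, where the summed log2 fold change is −0.08. Higher Myc was thus seen in the Cpt2 group against both other groups.

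**Figure D2:**
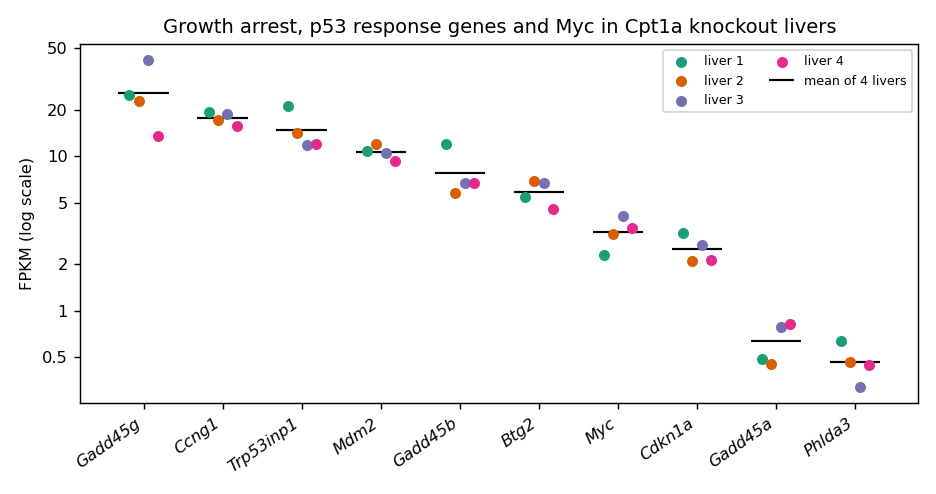
FPKM (y axis, log scale) of the 10 genes in each of 4 Cpt1a knockout livers (coloured points) with the mean of 4 (bars). Gadd45g spans 13.6 to 41.8 FPKM, while Mdm2 and Ccng1 stay within 1.28-fold and 1.23-fold.

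By mean FPKM the order was Gadd45g, Ccng1, Trp53inp1, Mdm2, Gadd45b, Btg2, Myc, Cdkn1a, Gadd45a and Phlda3. Neighbours in this order had overlapping ranges over the livers except Btg2 above Myc and Cdkn1a above Gadd45a. Means of 8 genes were at least 1 FPKM, and Gadd45a and Phlda3 lay below. Of these 8, 6 had an SD on the log2(FPKM + 1) scale above 0.20, the median of the 10859 genes at that level, and only 2 did when liver 1 was left out and the median taken over the same 3 livers. Gadd45g, at an SD of 0.63, exceeded 95.6% of these genes, Gadd45b (0.42) 88.3%, Trp53inp1 (0.36) 84.1%, and Mdm2 (0.13) 25.5%.

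**Figure D3:**
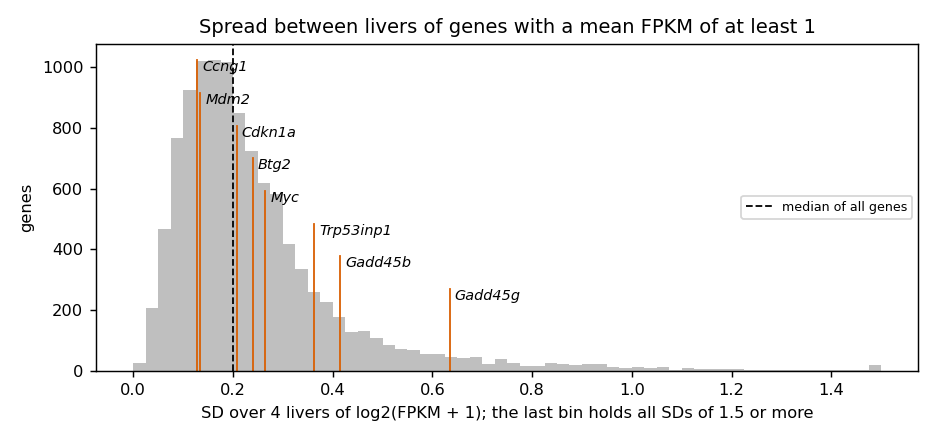
Number of genes (y axis) by SD over 4 livers of log2(FPKM + 1) (x axis) for 10859 genes with a mean FPKM of at least 1, with the 8 genes above that level as lines. Gadd45g lies at 0.63 and Mdm2 and Ccng1 at 0.13, on either side of the median of 0.20.

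Other p53 targets were mostly not called in the Cpt1a knockout and partly higher in the Cpt2 group. Of 28 further p53 target genes, 1 was higher and none lower in the Cpt1a knockout by the authors' deposited table, beside 6.81% and 7.6% of all genes. The median log2 fold change there was 0.08, with 19 of the 28 values summed from the other 2 tables. The higher gene was Perp, a desmosomal protein linked to p53-dependent cell death, at 0.82 (adjusted p = 0.0105). The Cpt2 group had 11 of 28 higher and none lower by the authors' deposited table, at a median of 0.40, beside 10.3% of all genes called higher. Among these 11, chosen after their values were seen, Gdf15, a secreted stress factor, had 3.20, the death receptor Tnfrsf10b 2.37 and the receptor Eda2r 2.01 in the authors' deposited table; in the Cpt1a knockout livers the last 2 were at only 0.045 and 0.114 FPKM. Directly compared, 11 of 28 were lower in the Cpt1a knockout than in the Cpt2 group and 3 were higher, by the authors' deposited table, beside 14.6% and 14.2% of all genes. Fas (0.57), Sesn2 (−0.57) and Ercc5 (−0.43) were called between the knockouts only, in the authors' deposited tables. Cdkn1a itself was at −0.02 in the Cpt2 group in the authors' deposited table, and whether it differs from the list was not tested.

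Trp53, which encodes p53 itself, was at 3.998 ± 0.654 FPKM (SD, n = 4). It had a log2 fold change of 0.69 in the Cpt2 group (adjusted p = 4.46e-04) and −0.69 between the knockouts (4.78e-04) in the authors' deposited tables. Its summed value for the Cpt1a knockout was 0.00. Of 18 genes of the p53 family, its kinases and regulators, none was called in the Cpt1a knockout against the reference, and Trp53 alone was called in the Cpt2 group, by the authors' deposited tables. Over all genes the share called was 14.4% in the Cpt1a knockout, 21% in the Cpt2 group and 28.8% between the knockouts. Only 11 of the 18 had a mean of at least 1 FPKM, and a difference from these shares was not tested. Between the knockouts, Mdm4, the partner of MDM2 that inhibits p53, had 0.55, while the acetyltransferase gene Kat5 had −0.53 and Trp53bp1 had −0.52 in the authors' deposited table.

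Of 6 other inhibitors of cyclin-dependent kinases, none was called in either knockout against the reference by the authors' deposited tables. Shares over all genes were 14.4% in the Cpt1a knockout and 21% in the Cpt2 group. Cdkn1b, which encodes p27, was at 6.35 ± 0.235 FPKM and Cdkn2c at 2.22 ± 0.420 (SD, n = 4 each), both named after their values were seen, so in these livers Cdkn1b stood above Cdkn1a per length. Cdkn2d and Cdkn1c were higher in the Cpt1a knockout than in the Cpt2 group, at 1.14 and 0.90 in the authors' deposited table. Of these 7 inhibitors, Cdkn1a alone was called in the Cpt1a knockout against the reference group in the authors' deposited table.

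Of 27 cell cycle genes, Ccnd1, which encodes cyclin D1, and the proliferation marker Mki67 were higher in the Cpt1a knockout than in the reference, and none was lower, where 6.81% of all genes were called higher, so 2 of 27 is near the background. Their log2 fold changes were 0.89 (adjusted p = 0.0180) and 1.52 (0.0366) in the authors' deposited table, the latter at only 0.158 ± 0.072 FPKM (SD, n = 4). For the Cpt2 group the authors' deposited table has 7 higher and 2 lower, beside 10.3% and 10.7% of all genes, with Ccnd1 at 1.14 and Cdk6 at 1.02. Between the knockouts Ccne1 and Mki67 were higher, at 1.09 and 1.86, among 3 higher and 3 lower genes in the authors' deposited table. There 14.2% of all genes were called higher and 14.6% lower.

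Of 8 MAP kinases downstream of GADD45, 2 were lower than the reference in both knockouts, Map2k6 and Mapk14, and the rest were not called there. Of all genes, 7.6% were called lower in the Cpt1a knockout and 10.7% in the Cpt2 group. A link to Gadd45g was not tested. Map2k6, an activator of p38, had log2 fold changes of −1.16 in the Cpt1a knockout and −2.93 in the Cpt2 group by the authors' deposited tables, and a direct difference of 1.76 (adjusted p = 3.26e-04). Mapk14, which encodes p38 alpha, was at −0.48 and −0.57 by the same authors' deposited tables. Map3k4 was called between the knockouts only, at −0.51 in the authors' deposited table.

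Immediate-early genes, which like Myc, Btg2 and the Gadd45 genes respond to stimuli within minutes, were called in none of 15 in the Cpt1a knockout against the reference. There 14.4% of all genes were called, and 14 of the 15 values are sums of the other 2 tables. A difference from that share was not tested. For the Cpt2 group, 3 were higher and 2 lower by the authors' deposited table, beside 10.3% and 10.7% of all genes. The stress factor Atf3 was at 2.70 and Klf6 at 2.47. Between the knockouts, 6 were lower and 1 was higher by the authors' deposited table, beside 14.6% and 14.2% of all genes, among them Atf3 (−2.97), Klf6 (−2.18), Jun (−1.44) and Jund (−1.15). The summed FPKM of the list ranged from 72.0 to 129 over the 4 livers, so these genes varied between livers of 1 genotype.

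MYC target genes were partly higher in the Cpt2 group and mostly lower in the Cpt1a knockout than there. Of 16, 9 were higher and none lower in the Cpt2 group, at a median log2 fold change of 0.46, in the authors' deposited table, beside 10.3% of all genes called higher. In the Cpt1a knockout Ncl, which encodes nucleolin, and Pa2g4 were lower than in the reference, and none was higher, by the authors' deposited table, beside 7.6% of all genes called lower. The median there was −0.29, with 8 of the 16 values summed from the other 2 tables. Directly compared, 10 were lower and 1 was higher in the Cpt1a knockout by the authors' deposited table, at a median of −0.81, beside 14.6% of all genes called lower. Ncl had −0.62, 0.69 and −1.32, Pa2g4 −0.58, 0.34 and −0.93, and the nucleolar gene Nop56 −0.44, 0.74 and −1.19 in the Cpt1a knockout, the Cpt2 group and the direct comparison of the authors' deposited tables, of which only the −0.44 of Nop56 did not pass (adjusted p = 0.0506). Odc1, of polyamine synthesis, was called in the Cpt2 group alone, at 0.46 in the authors' deposited table.

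Within the MYC network of 13 genes, Mycl was the only call in the Cpt1a knockout against the reference, at −1.22, and it had −1.43 in the Cpt2 group by the authors' deposited tables. That is 1 lower gene of 13, near the 7.6% of all genes called lower. In the Cpt2 group 3 were lower and none higher, beside 10.7% and 10.3% of all genes. Between the knockouts 3 were higher and 1 was lower, beside 14.2% and 14.6%. Max, the obligate partner of MYC, was called between the knockouts only, at −0.57 in the authors' deposited table. Mlxipl, which encodes ChREBP, was at −0.67 in the Cpt2 group and 0.69 between the knockouts by the authors' deposited tables. Mycn had 3.38 between the knockouts in the authors' deposited table, at only 0.103 ± 0.034 FPKM (SD, n = 4).

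FOXO factors, active in fasting, also control Cdkn1a and the Gadd45 genes. Of 13 FOXO genes and targets, 2 were lower and 1 higher in the Cpt1a knockout against the reference by the authors' deposited table. That stands beside 7.6% and 6.81% of all genes, and a link to Cdkn1a or the Gadd45 genes was not tested. Foxo1 had −0.87 and Klf15, a fasting regulator of amino acid use, −0.82, while Bnip3 of mitophagy had 0.54 in the authors' deposited table. The Cpt2 group had Foxo1 at −1.02, Klf15 at −1.32 and Ccng2 at −0.85, with none of the list higher, in the authors' deposited table. There 10.7% of all genes were called lower. Between the knockouts 3 of the list were higher in the Cpt1a knockout and 1 was lower, by the authors' deposited table, beside 14.2% and 14.6% of all genes. Klf15 (0.49) and Bnip3 (0.86) were among the higher. The lower gene, Igfbp1, a secreted binding protein of insulin-like growth factors named here after its values were seen, had −2.67 in the authors' deposited table (adjusted p = 3.00e-22), the largest change of the list in that comparison. Against the reference Igfbp1 has only a summed value, −3.74. The part of it from the Cpt2 group has no p-value and was taken as left out of the adjustment.

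**Figure D4:**
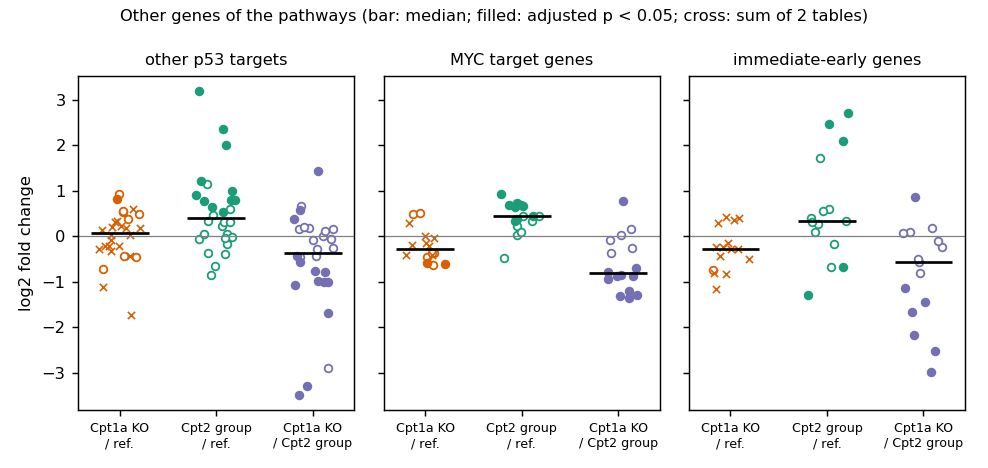
The log2 fold change (y axis) of each gene of 3 lists in 3 comparisons (x axis), with circles for the authors' values (filled for an adjusted p below 0.05), crosses for sums of the other 2 tables (19 of 28 p53 targets, 8 of 16 MYC targets and 14 of 15 immediate-early genes against the reference) and medians as bars. MYC target genes have medians of −0.29, 0.46 and −0.81, and the other p53 targets 0.08, 0.40 and −0.36.

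Values of the 10 genes were also set beside those of genes around them. Within 500000 bases of their starts, 21 genes were called in the Cpt1a knockout against the reference in the authors' deposited table. The neighbours tested there are not listed in full, so the 137 tested in both other tables stand in for them. That gives 15.3%, beside 14.4% of all genes, whose base was worked out in another way. Near Cdkn1a, 2 were called where 19 were tested in both other tables, Mapk14 lower and Fgd2, named here after its values were seen, higher. The protein-coding genes whose log2 fold changes in the other 2 tables lay nearest to those of Cdkn1a, among 9503 with a mean FPKM of at least 1, were Ppp1r3g (distance 0.37), Rgs16 (0.72) and Orm2 (0.73). For Btg2 they were Nfkbil1 (0.03), Nolc1 (0.05) and Gtf2f1 (0.10), and for Gadd45g they were Urad (0.12), Slc45a3 (0.12) and Cyp7b1 (0.14), over 2 comparisons that share the Cpt2 group.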

How the data were processed

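Liver total RNA of 4 samples was sequenced. The submitters' processing notes name HISAT2 as a tool and GRCm38 (mm10) as the build. The counter is not named, and whether strand was used is not given in the sources used here. Raw read counts per gene and the FPKM values were used as deposited by the authors. The authors' library size behind FPKM was 1.06 to 1.15 times the summed counts. The count table holds 8 more per-sample columns that match no sample here, and these were not used.

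The authors' 3 deposited comparison tables hold log2 fold changes, with p-values before and after adjustment, per the file headers. Their test is not named there. Their group means and per-sample columns were not used, because they include groups outside the samples here. The table against the reference group lists 4461 genes, all with p of at most 0.05, so a gene missing there was given the sum of the log2 fold changes of the other 2 tables. That sum differed from the listed value by a median of −0.01. The 16862 genes behind its adjustment were worked out from its p and adjusted p. Genes with an adjusted p equal to 1 were taken as left out of the adjustment. Because the series holds 1 group, no test between groups was fitted, and genes were called from the authors' adjusted p below 0.05. Batch and group cannot be told apart, since the Cpt2 samples came from an earlier submission.

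Means, SDs and ranges over livers were computed in Python 3.11.15, and TMM and size-factor scalings with edgeR 4.0.16 and DESeq2 1.42.0 (R 4.3.3). The calculations were tested on simulated data. The 10 genes, 10 further pathway lists and 7 cell type lists were chosen with earlier results of these data known. Beyond the members, the text names, from each list's genes called in any table, the 4 with the smallest adjusted p in the Cpt1a knockout against the reference (then against the Cpt2 group), Trp53, Mdm4, Max and Atf3, and the 3 genes nearest to each member called against the reference. Other names are marked as picked with values in view. Of 7 hepatocyte markers, 6 matched a symbol. Alternatives were the thresholds, a fold minimum, a mean count of at least 10, scalings, the pseudocount (1 or 0.1), leaving out each liver, and the window size.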

Additional observations from a re-analysis of the deposited data

Results flagged for a closer look

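Gadd45b had 11.99 FPKM in liver 1, apart from 5.77 to 6.77 in the other 3 livers. The gap was 0.84 of the whole range, past the limit for 4 samples, which chance exceeds in about 1 of 20 groups of samples. The other 9 genes stayed within it.

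A difference between the Cpt1a knockout and the Cpt2 group under the shared reference is tested by the authors' deposited table of the direct comparison. There 28.8% of all genes were called in either direction. Of the 28 other p53 targets, 11 were lower and 3 higher, and most of these are not repeated here. The following log2 fold changes were called and cover only the 10 genes and the genes named by the rule given above. Among the 10 genes these were Cdkn1a (−2.82), Btg2 (−1.17), Myc (−1.30) and Trp53inp1 (0.51). Among p53 genes, the authors' deposited table has Fas at 0.57, Ercc5 at −0.43, Sesn2 at −0.57, Mdm4 at 0.55, Trp53 at −0.69, Kat5 at −0.53 and Trp53bp1 at −0.52. For cell cycle and antiproliferative genes it has Cdkn2d at 1.14, Cdkn1c at 0.90, Mki67 at 1.86, Ccne1 at 1.09, Btg1 at 0.66, Btg3 at −1.06 and Tob1 at 0.54. Kinases and immediate-early genes were Map2k6 (1.76), Map3k4 (−0.51), Jund (−1.15), Klf6 (−2.18), Atf3 (−2.97) and Jun (−1.44). In the MYC and FOXO lists they were Max (−0.57), Mlxipl (0.69), Mycn (3.38), Pa2g4 (−0.93), Ncl (−1.32), Nop56 (−1.19), Klf15 (0.49) and Bnip3 (0.86).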

How the results depend on the processing

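At an adjusted p below 0.01, 1 of the 3 genes called in the Cpt1a knockout against the reference was left, Cdkn1a, so the calls of Btg2 and Gadd45g rest on the threshold of 0.05. In the other 2 comparisons the count of the 10 genes called stayed within 1.5 times under each threshold, fold and count minimum run, but between the knockouts Trp53inp1, the only higher gene, was lost at 0.01 and at a log2 fold change of at least 1 in size, and Ccng1 and Gadd45g were added at 0.1. Without liver 1, 2 genes had an SD above the median, and leaving out each liver gave 2 to 6. Over the further pathway lists, 11 genes were called in the Cpt1a knockout against the reference. The lists hold 28, 18, 6, 27, 4, 8, 15, 13, 16 and 13 genes, and 14.4% of all genes were called in either direction. The count was 6 at 0.01, 28 at 0.1 and 3 with a log2 fold change of at least 1 in size. These alternatives were chosen after seeing the data. A window of 1000000 bases held 34 called neighbours (13.6% of the number tested in both other tables). Mean FPKM of each gene moved by less than its SD under both scalings and without each liver. No log2 fold change reversed when summed from the other tables. These outcomes were close to fixed in advance and show little about stability. Leaving out a single liver cannot move a mean by as much as its SD. Both scalings were set to the authors' mean library size, and the summed tables compare the same groups. No paired analysis was possible because the series holds 1 group. Between 8 and 23 counts per liver limit Phlda3 and Gadd45a, and the authors' fold changes could not be refitted without single libraries.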
